A study of Mus musculus with 78 samples.

Results

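Lungs of mice that had been kept awake for 12 h were compared with lungs of mice taken at the start of the light period. The comparison was set by the labels alone and held 17 of the 78 lung arrays, with 1 mouse per array. The sleep-deprived mice (SD 12 h, n = 8) were kept awake by gentle handling from lights on and were killed 12 h later, and the baseline mice (n = 9) were left undisturbed and killed at lights on. A further group, left to sleep until the same hour as SD 12 h (SS 12 h, n = 9), was used as the same-hour comparison. All were male C57BL/6 J mice about 10 weeks old under 12 h of light and 12 h of dark, and all had been fed only in the dark for the 14 days before. SD 12 h and SS 12 h mice had therefore gone through the light period without food, while baseline mice had just left the feeding period. Against baseline, sleep loss, hour of the day and hours without food cannot be told apart, whereas SD 12 h and SS 12 h mice shared the hour and the fast. Neither sleep group was recorded by electroencephalogram, and RNA was taken from whole lung, so that fewer cells of a type and less RNA per cell cannot be told apart.

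Values are log2 intensities as summarised by the authors, in which a difference of 1 is a doubling. A gene was taken as changed when its adjusted p from limma was under 0.01, with the adjustment made over all 35556 probe sets. These p-values measure the spread between mice. Lung identity was plain in every mouse. Sftpc, the surfactant protein of alveolar type 2 cells, lay between 13.14 and 13.30 in SD 12 h mice and between 13.08 and 13.35 in baseline mice, and Ager, a marker of alveolar type 1 cells, between 11.89 and 12.13 in SD 12 h mice and between 11.94 and 12.13 in baseline mice.

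Some arrays stood apart from their labels or from the rest. Along the array numbers each condition forms runs, and 16 of the 78 arrays were doubted. Each of the 16 lies first or last in its run or, as array 81, out of sequence. Other arrays at the ends of runs were not doubted, so that this place alone does not define the 16. They include arrays 24 and 81 of SD 12 h and arrays 36 and 56 of baseline. They were doubted because an order of conditions inferred from the numbers, with earlier results known, would give them another condition, which no label states. On the 22 clock genes that changed, array 36, labelled baseline, was nearer to the mean of SD 12 h than to that of baseline for 22 of 22 genes. Array 81, labelled SD 12 h, was nearer to baseline for 10 of 22, array 56 nearer to SD 12 h for 2 of 22 and array 24 nearer to baseline for 0 of 22. Array 27 of SD 12 h carried a far higher level of T cell and thymus transcripts than any other mouse of either group. Labels were used as given, and results are also given from a fit without the 16 arrays, which left 6 SD 12 h mice and 7 baseline mice, and where they differ, without array 27. Arrays 36 and 81 lay toward the other group, so that leaving them out can widen differences and lessen the spread. Counts and p-values from the fit without the 16 arrays are therefore no independent test of any result below. SD 12 h lies in other runs of array numbers than baseline, so run and group cannot be told apart.

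Many of the largest changes fell on the circadian clock and on genes that glucocorticoids switch on, and others, such as Spon2 and Mettl21e, on neither. In the clock, the activators Arntl (Bmal1) with Clock or its paralog Npas2 bind the E-box and switch on the Per and Cry repressors, the nuclear receptors Nr1d1 and Nr1d2 and the output factors Dbp, Tef and Hlf. The Per and Cry proteins then block the activators, Nr1d1 and Nr1d2 compete with Rora at the Ror element of genes such as Arntl and Nfil3, and the output factors act at the D-box, where Nfil3 opposes them. Glucocorticoids of the adrenal gland, which in nocturnal rodents peak around lights off and rise with stress, act through a receptor that switches on genes such as Fkbp5, Zbtb16 and Per1. Nr1d1 and Dbp were not analysed here.

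The 3 elements are shown in promoter windows of clock genes that changed, in order that the groups described next can be read against their sequence. The windows run from 250 bases before to 50 bases after the start site in RefSeq (build GRCm38.p6), and capitals mark matches on either strand to CACGTG (E-box), to TTATGTAA or TTATGCAA (D-box) and to TAGGTCA (Ror element). Per1 (chr11:69098699-69098998, plus strand) held an E-box at -166 and a D-box at -24, Per3 (chr4:151044616-151044915, minus strand) D-boxes at -205 and -158, Tef (chr15:81802423-81802722, plus strand) an E-box at -127 and Arntl (chr7:113207261-113207560, plus strand) a Ror element at 31, counted from the start site.
Per1: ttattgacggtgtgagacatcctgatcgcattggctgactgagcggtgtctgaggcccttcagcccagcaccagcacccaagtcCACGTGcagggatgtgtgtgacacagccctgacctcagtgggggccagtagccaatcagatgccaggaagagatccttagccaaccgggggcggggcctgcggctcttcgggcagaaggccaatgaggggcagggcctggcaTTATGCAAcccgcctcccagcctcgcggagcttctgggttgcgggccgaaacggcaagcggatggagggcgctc
Per3: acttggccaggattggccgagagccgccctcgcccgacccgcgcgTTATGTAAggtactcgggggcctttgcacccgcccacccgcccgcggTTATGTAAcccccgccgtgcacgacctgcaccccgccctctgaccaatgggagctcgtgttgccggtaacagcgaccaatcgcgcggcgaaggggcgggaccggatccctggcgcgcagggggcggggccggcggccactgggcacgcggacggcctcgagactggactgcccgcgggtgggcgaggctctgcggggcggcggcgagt
Tef: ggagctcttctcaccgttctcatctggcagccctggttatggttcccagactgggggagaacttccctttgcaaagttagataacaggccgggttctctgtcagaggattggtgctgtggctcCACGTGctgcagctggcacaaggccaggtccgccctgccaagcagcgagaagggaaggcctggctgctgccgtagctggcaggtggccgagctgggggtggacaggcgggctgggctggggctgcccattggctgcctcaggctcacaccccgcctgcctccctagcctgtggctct
Arntl: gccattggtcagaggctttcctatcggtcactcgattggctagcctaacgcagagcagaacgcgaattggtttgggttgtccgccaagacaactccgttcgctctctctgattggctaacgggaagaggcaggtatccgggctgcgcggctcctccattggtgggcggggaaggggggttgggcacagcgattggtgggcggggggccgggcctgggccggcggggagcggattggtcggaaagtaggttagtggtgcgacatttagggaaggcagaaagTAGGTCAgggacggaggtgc
Of all 32851 windows, 7.15% held the E-box, 1.66% the D-box and 2.61% the Ror element. Among the measured clock genes with a window, the E-box stood in 8 of 22, namely Bhlhe41, Ciart, Coq10b, Cry1, Lonrf3, Per1, Tef and Tspan4, the D-box in 3 (Coq10b, Per1 and Per3) and the Ror element in 3 (Arntl, Leo1 and Nfil3). Of the genes with a window that were higher in SD 12 h, 55 of 385 (14.3%) held an E-box, as did 42 of 404 (10.4%) of those that were lower and 1411 of 14749 (9.57%) of all measured genes. The D-box stood in 3.64% of the higher, 1.98% of the lower and 1.89% of all measured genes. For the Ror element these shares were 1.3%, 3.96% and 2.64%. For Per1, Per3 and Tef the window with the lowest start coordinate is shown, and for Arntl a later one. A match is a description of these letters and not a shown binding site.

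In total, 1258 probe sets changed between SD 12 h and baseline, and by gene 493 were higher in SD 12 h (2.62% of 18820 genes) and 521 lower (2.77%). The median size of these changes was 0.37, and 47 genes changed by more than 1 on the log2 scale, 28 of them higher and 19 lower. The median difference of all genes was -0.003. An unadjusted p under 0.05 against baseline was reached by 4239 of the 18820 genes, the background for such counts in the gene lists. All lists were drawn up with earlier results of these data known, and their counts are descriptions. Without the 16 arrays, 864 genes were higher (4.59%) and 962 lower (5.11%), and 995 of the 1014 genes changed in all mice were among them, each in the same direction. Both fits share most of their mice, so that this overlap is no independent test. With only the 17 arrays of both groups in the fit, 390 genes changed.

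Among the clock activators and nuclear receptors, 3 of the 6 measured genes were lower in SD 12 h and 2 higher. Npas2 ranged over 6.62, 6.99 and 7.20 (lowest, median and highest) in SD 12 h mice and 6.54, 9.89 and 10.08 in baseline mice. The only baseline mouse as low as SD 12 h was that of array 36, and the 8 others lay above every SD 12 h mouse. Npas2 fell by 2.55 on the log2 scale (SE 0.32, adjusted p = 1.87e-07, limma), the largest change of any gene that passed. Arntl ranged over 6.25, 6.54 and 7.51 in SD 12 h mice and 5.80, 9.33 and 9.51 in baseline mice, again with array 36 as the low baseline mouse. It fell by 2.24 (SE 0.30, adjusted p = 5.79e-07), with a difference of -2.72 without the 16 arrays. Clock itself fell by only 0.36 (SE 0.07, adjusted p = 0.000279). Nr1d2, which represses Arntl, had 10.14, 10.20 and 10.47 in SD 12 h mice and 7.57, 8.06 and 10.38 in baseline mice, where the highest was array 36. It was 1.93 higher (SE 0.21, adjusted p = 4.71e-09), a 3.82-fold difference, and Rora was 0.32 higher (SE 0.06). Rorb, which was dim, differed by -0.13 (adjusted p = 0.308).

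**Figure D1:**
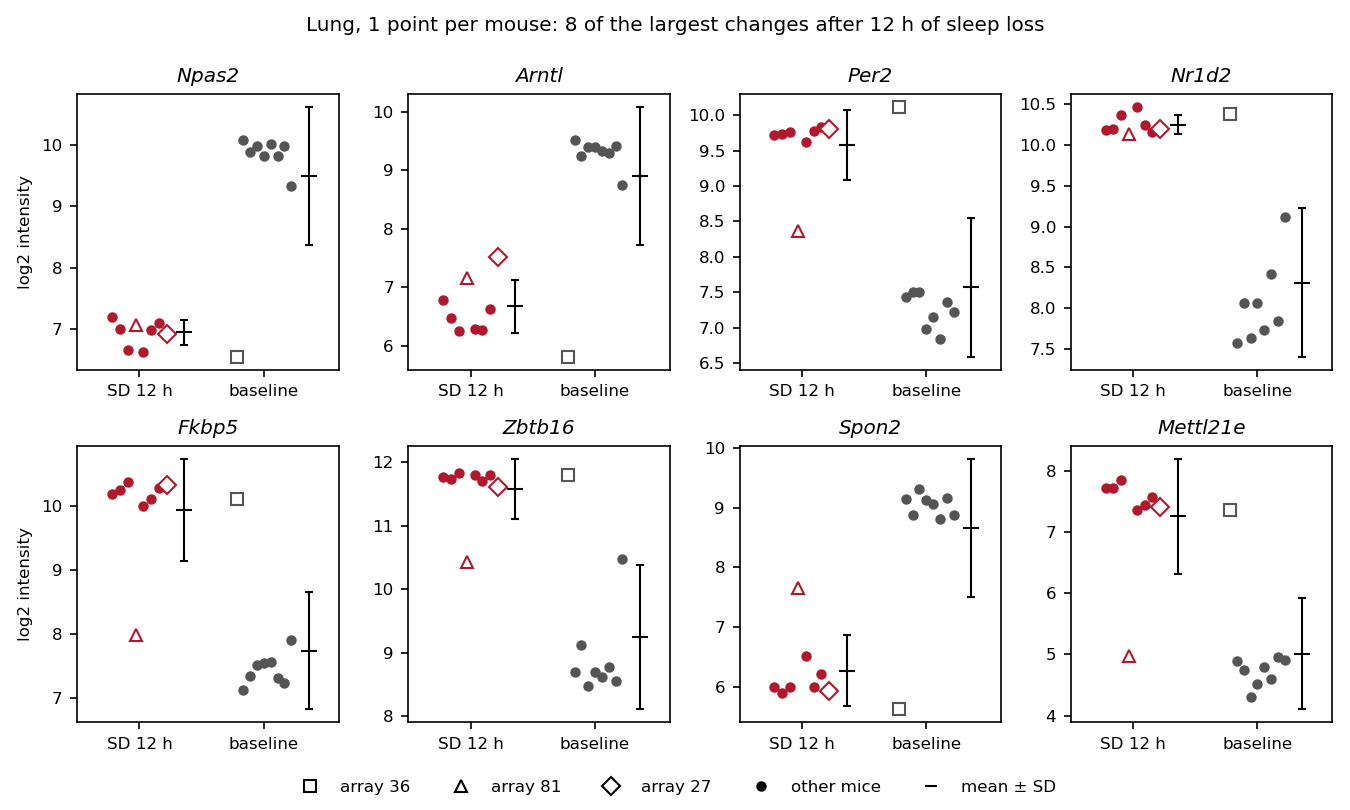
Log2 intensity (vertical axes) in each SD 12 h mouse (red, left) and each baseline mouse (grey, right) for 8 genes of the 24 with the largest changes, with the mean and SD of all mice of the group in black. The open square is array 36, which lies within or beyond the SD 12 h mice in all 8 panels, the open triangle array 81 and the open diamond array 27.

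Of the 8 measured clock repressors, 7 were higher in SD 12 h and none lower, with a median difference of 0.87. Per2 had 8.37, 9.75 and 9.83 in SD 12 h mice and 6.84, 7.36 and 10.12 in baseline mice. The lowest SD 12 h mouse was array 81 and the highest baseline mouse array 36, and without the 16 arrays the SD 12 h mice began at 9.72, where the baseline mice ended at 7.51. Per2 was 2.01 higher (SE 0.26, adjusted p = 2.8e-07, limma), or 2.52 without these arrays. Per1 was 1.85 higher (SE 0.25), Per3 1.76 (SE 0.22), Bhlhe41 1.03 (SE 0.19), Ciart 0.72 (SE 0.16), Cry2 0.69 (SE 0.09) and Bhlhe40 0.66 (SE 0.12). Bhlhe40 and Bhlhe41 encode the Dec repressors, and Ciart (Chrono) a further repressor of Arntl and Clock. Cry1 did not pass, with a difference of 0.06 (adjusted p = 0.903) and values of 6.84 to 8.30 in SD 12 h and 6.90 to 8.22 in baseline mice. Its lowest values were those of array 81 and array 56, and without the 16 arrays it differed by 0.24 (adjusted p = 0.122).

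Of the 11 measured genes in the clock output list, 8 were higher and 2 lower. The list was drawn up with earlier results of these data known, so that this count is no independent test. Hlf, an output transcription factor, had 8.57, 9.08 and 9.30 in SD 12 h mice and 7.47, 7.56 and 9.37 in baseline mice. Array 81 was again the lowest SD 12 h mouse and array 36 the highest baseline mouse. Hlf was 1.28 higher (SE 0.17, adjusted p = 5.79e-07, limma), and the related factor Tef 1.21 higher (SE 0.17). Wee1, a kinase that delays mitosis, was 1.13 higher, Usp2, a deubiquitinase, 0.99 and Tspan4 0.96. Smaller rises were seen for Pim3, a kinase (0.51), Coq10b (0.47) and Nampt, which makes the precursor of NAD (0.43). Nfil3, the repressor at the D-box, fell by 0.85 (SE 0.20, adjusted p = 0.00211) and Leo1, a subunit of the Paf1 complex, by 0.69. Lonrf3 differed by -0.10 (adjusted p = 0.852). The same numbers of activators, repressors and output genes passed without the 16 arrays and without array 27.

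The cold-inducible RNA-binding genes, whose transcripts rise with cold, did not pass against baseline, and 0 of the 2 had an unadjusted p under 0.05. Cirbp differed by -0.03 (adjusted p = 0.953), with 9.41 to 10.39 in SD 12 h and 9.02 to 10.09 in baseline mice. Rbm3 differed by 0.00 (95% interval from -0.21 to 0.21, adjusted p = 0.997), with 11.34 to 12.10 in SD 12 h and 11.39 to 12.21 in baseline mice, where the highest was array 36. Against SS 12 h, 2 of the 2 had an unadjusted p under 0.05 by limma and neither passed. Cirbp was at -0.40 (95% interval from -0.72 to -0.07, adjusted p = 0.477) and Rbm3 at -0.41 (from -0.61 to -0.20, adjusted p = 0.0673). Rbm3 was 0.41 higher in SS 12 h than at baseline (adjusted p = 0.00464).

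Of genes induced by glucocorticoids, 17 of 28 measured members were higher in SD 12 h, with none lower and a median difference of 0.58 against -0.003 for all genes. Fkbp5, a co-chaperone that dampens the receptor, had 7.99, 10.21 and 10.37 in SD 12 h mice and 7.12, 7.51 and 10.10 in baseline mice. All SD 12 h mice but array 81 lay at or above 9.99, and all baseline mice but array 36 at or below 7.90. Fkbp5 was 2.19 higher (SE 0.30, adjusted p = 7.4e-07, limma), a 4.58-fold difference, and 7.31-fold without the 16 arrays. Zbtb16, a zinc finger repressor, had 10.43, 11.75 and 11.83 in SD 12 h mice and 8.48, 8.70 and 11.80 in baseline mice, and its rise of 2.34 (SE 0.32) was the largest of any gene that passed. The high baseline mice were arrays 36 and 56 here. Fam107a was 2.0 higher, Hif3a, a variant subunit of hypoxia-inducible factors, 1.68, Map3k6 1.62, Tsc22d3 (Gilz), an anti-inflammatory effector of the hormone, 1.25, Ddit4, an inhibitor of mTORC1, 0.96, and the Krüppel-like factors Klf9 and Klf15 0.80 and 0.74. Sult1a1, Cebpd, Bcl2l1, Arrdc2, Errfi1, Nfkbia and Arrdc3 rose by 0.85 to 0.36. Pdk4 differed by 1.17 (adjusted p = 0.0167), Mt2 by 0.42 (adjusted p = 0.0354) and Dusp1 by 0.24 (adjusted p = 0.126). Of the 28, 23 passed without the 16 arrays, all higher, with Pdk4 at 1.71, Mt2 at 0.49 and Dusp1 at 0.35 among them.

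Against mice that slept to the same hour, 0 of these 28 genes differed by limma (5 at an unadjusted p under 0.05), with a median difference between SD 12 h and SS 12 h of 0.00. Fkbp5 was 0.15 higher in SD 12 h (95% interval from -0.45 to 0.75) and Zbtb16 differed by -0.05 (from -0.70 to 0.60). The interval of Fkbp5 still holds a rise of over 0.5, and that of Zbtb16 a difference of over 0.5 in either direction. Set beside baseline, 17 of the 28 were higher in SD 12 h and 18 in SS 12 h (background 3.67% higher and 2.67% lower in SS 12 h). Both comparisons rest on the same baseline mice. Without the 16 arrays, Cdkn1a, an inhibitor of the cell cycle, differed from SS 12 h at 0.60 (adjusted p = 0.00413).

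Genes of fasting and of insulin withdrawal were higher in part. Of 27 targets of Ppar nuclear receptors and other fasting genes, 4 were higher and none lower, and of 18 genes responsive to Foxo factors and insulin 5 were higher and 1 lower. Angptl4, a secreted inhibitor of lipoprotein lipase, had 8.48, 10.10 and 10.34 in SD 12 h mice and 7.66, 8.23 and 9.49 in baseline mice. The groups met only through array 81, the lowest SD 12 h mouse, and arrays 36 and 56, the highest baseline mice. Angptl4 was 1.52 higher (SE 0.22, adjusted p = 1.57e-06, limma) and Cpt1a, which admits fatty acids to mitochondria, 0.44 higher (SE 0.05, adjusted p = 6.01e-08). Acaa2, a thiolase of fatty acid oxidation, rose by 0.32 and Acot1, a thioesterase, by 0.50. Among Foxo and insulin-responsive genes, Pik3ip1, an inhibitor of phosphoinositide 3-kinase, was 0.68 higher, Foxo3 0.56, Klf15 0.74, Sesn1 0.25 and Txnip 0.20, while Sesn3 fell by 0.42 (SE 0.07). In the fit without the 16 arrays, 7 fasting genes and 9 Foxo genes were higher.

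Lipid synthesis had few genes past the threshold in all mice, with 1 of 22 genes of fatty acid synthesis lower (Fads2, a desaturase, which fell by 0.33) and 1 of 20 genes of cholesterol synthesis lower and 1 higher. Srebf2, the master factor of the cholesterol pathway, fell by 0.23 (SE 0.06, adjusted p = 0.00551) and Pmvk, the phosphomevalonate kinase, was 0.46 higher (SE 0.12, adjusted p = 0.00749), and the median of the cholesterol list was -0.22, with 17 of 20 members below 0. At an unadjusted p under 0.05 stood 12 of the 22 fatty acid genes and 14 of the 20 cholesterol genes, against 4239 of all 18820 genes. Of the 20, 12 were lower without the 16 arrays, among them Hsd17b7, Idi1, Dhcr7 and Hmgcs1, with Hmgcs1 at -0.42 (adjusted p = 0.000921). In drug metabolism, 4 of 18 were higher and 1 lower. Cyp1a1, the classical target of the aryl hydrocarbon receptor, had 8.14, 8.38 and 8.78 in SD 12 h mice and 8.96, 9.33 and 9.72 in baseline mice, which did not overlap. It fell by 0.94 (SE 0.18, adjusted p = 0.000117), while Cyp2a5 was 0.83 higher, Cyp2b10 0.35, Fmo2 0.28 and Cyp2e1, which fat also expresses, 1.03 (adjusted p = 0.00925). Groups without any overlap were seen for 47 of the 1014 changed genes and for 59 of all 18820 genes (0.313%), where 2.62% and 2.77% passed as higher and as lower.

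**Figure D2:**
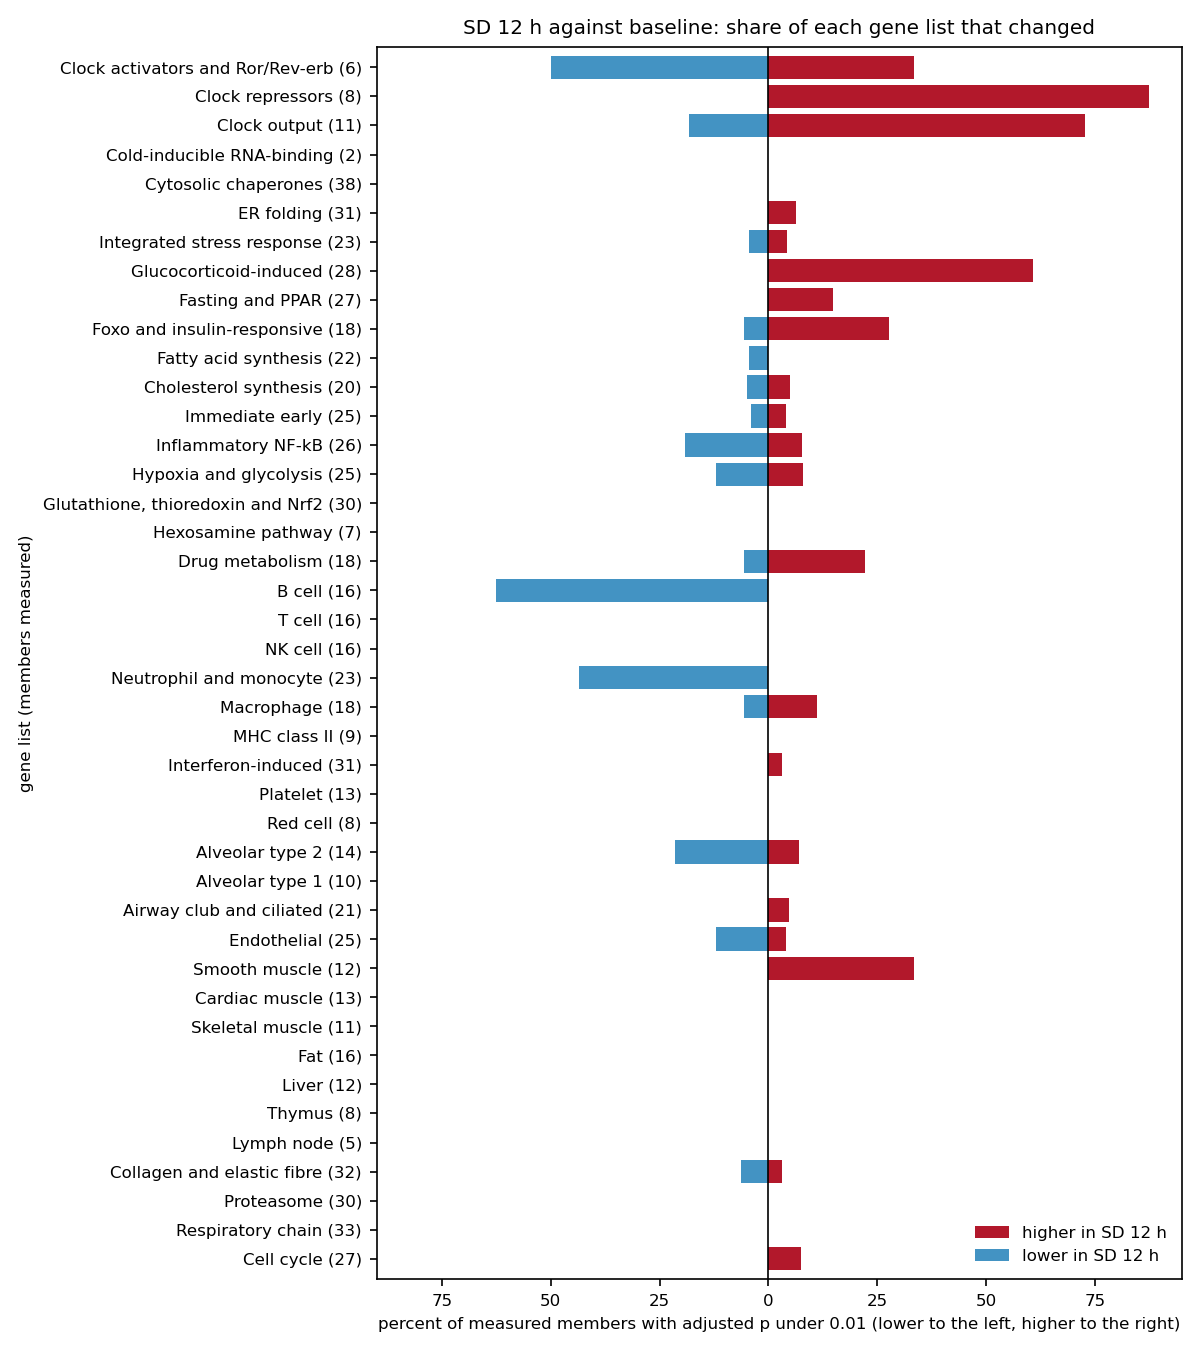
Share of the measured members of each of the 42 gene lists (vertical axis, members measured in brackets) that were higher (red, to the right) or lower (blue, to the left) in SD 12 h than in baseline mice, in percent (horizontal axis). Glucocorticoid-induced genes (17 of 28) and clock repressors (7 of 8) lie to the right, and B cell genes (10 of 16) and neutrophil and monocyte genes (10 of 23) to the left.

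Transcripts of B cells and of neutrophils and monocytes were lower. Of 16 B cell genes 10 were lower in SD 12 h and none higher, with a median difference of -0.76, and of 23 genes of neutrophils and monocytes 10 were lower and none higher, with a median of -0.50. Fcer2a, the low-affinity receptor for IgE on B cells, had 6.46, 7.19 and 8.42 in SD 12 h mice and 7.73, 8.41 and 8.68 in baseline mice. Array 81 was the high SD 12 h mouse and array 36 the low baseline mouse, though the groups ran close without them, with 7.78 the highest and 7.86 the lowest value. Fcer2a fell by 1.13 (SE 0.25, adjusted p = 0.00156, limma), Bank1, an adaptor of the B cell receptor, by 1.0, Cr2, the complement receptor, by 0.90, Ms4a1 (Cd20) by 0.88, Cd79a by 0.86 and Pax5, which sets B cell identity, by 0.78. The mean level of the whole B cell list lay between 6.73 and 7.89 in SD 12 h and between 7.64 and 8.26 in baseline mice. In the fit without the 16 arrays, 14 of 16 were lower, and without array 27 alone 6 were. Against SS 12 h, 0 of the 16 passed by limma (5 at an unadjusted p under 0.05), with a median difference of -0.36. The median difference between SS 12 h and baseline was -0.43, with 0 of the 16 past the threshold.

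Retnlg, a secreted protein of neutrophils, had 7.41, 8.15 and 9.54 in SD 12 h mice and 8.36, 9.43 and 9.81 in baseline mice, with array 81 as the high and array 36 as the low mouse of its group. It fell by 1.21 (SE 0.24, adjusted p = 0.000229, limma), as did Cxcr2, the chemokine receptor of neutrophils (SE 0.22), and Csf3r, the receptor of granulocyte growth factor, fell by 1.11, Mmp9 by 1.07, Ifitm6 by 1.04, S100a9 by 0.97, S100a8 by 0.90 and Hdc, which makes histamine, by 0.76. The granule genes Ltf, Ngp and Camp of the same list differed by 0.42, -0.28 and -0.06 and did not pass. Il1b, a cytokine of myeloid cells, had 5.81, 6.13 and 7.06 in SD 12 h mice and 6.18, 7.56 and 7.99 in baseline mice and fell by 1.22 (SE 0.20, adjusted p = 2.02e-05). In the inflammatory list, to which it belongs, 5 of 26 were lower and 2 higher, with Cxcl5 falling by 0.88, Relb by 0.40, Nfkb2 by 0.37 and Icam1 by 0.18, and with the acute phase gene Saa3 (0.71) and the inhibitor Nfkbia (0.37) higher. The level of the neutrophil and monocyte list lay between 7.13 and 7.67 in SD 12 h and between 7.46 and 8.20 in baseline mice, and its part in the changes of inflammatory genes was not tested. Against SS 12 h, 0 of its 23 genes passed by limma (9 at an unadjusted p under 0.05), with a median difference of -0.1. The median difference between SS 12 h and baseline was -0.43, with 7 of the 23 lower and 0 higher. Both comparisons with baseline rest on the same baseline mice.

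**Figure D3:**
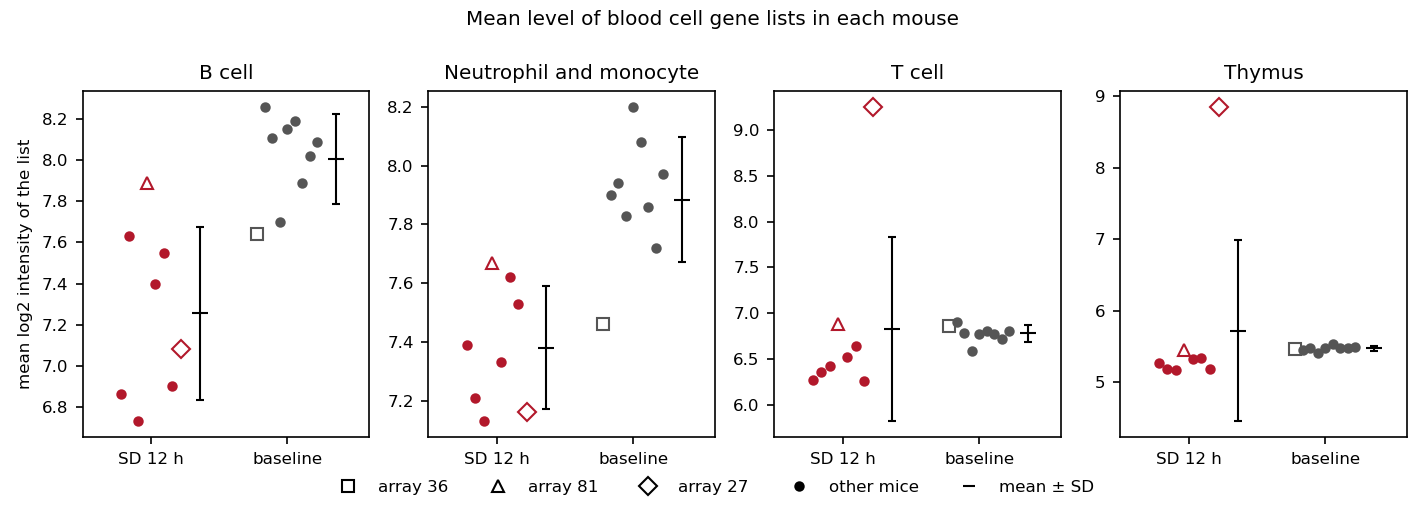
Mean log2 intensity over the members of 4 gene lists (vertical axes) in each SD 12 h mouse (red, left) and each baseline mouse (grey, right), with group means and SDs in black. The levels of B cell genes (6.73 to 7.89 against 7.64 to 8.26) and of neutrophil and monocyte genes lie lower in SD 12 h, and the open diamond (array 27) stands alone for T cell and thymus genes at 9.25 and 8.85.

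T cell genes depended on array 27. Their level was 9.25 on this array and reached at most 6.88 in the other SD 12 h mice, against 6.59 to 6.91 in baseline mice, and Cd3e, a chain of the T cell receptor complex, had 10.98 there. The array also had 8.85 for the thymus list, where the other SD 12 h mice reached 5.45, and 8.52 for the cell cycle list, against at most 7.23 in the others. Of 16 T cell genes 0 passed with it (1 at an unadjusted p under 0.05), with Ccr7, the homing receptor to lymph nodes, at -0.44 (adjusted p = 0.0729), 2 were lower without it, and 7 were lower without it and the 16 arrays. Array 27 was set apart by its level of these same genes. Leaving it out lowers the SD 12 h mean, so the counts without it are no test of T cell genes. Rag2, a recombinase of developing lymphocytes, differed by 0.45 (adjusted p = 0.206). In the cell cycle list the replicative helicase genes Mcm7 and Mcm4 were higher by 0.37 and 0.23, and 1 gene was higher and 1 lower without array 27. Of 16 NK cell genes none passed (8 at an unadjusted p under 0.05), with Itga2 at -0.31 (adjusted p = 0.0285), and 3 were lower without the 16 arrays.

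Genes of resident lung cells changed in part. In alveolar type 2 cells, 3 of 14 were lower and 1 higher. Abca3, which loads surfactant lipid into lamellar bodies, fell by 0.29 (SE 0.05), Cxcl15 (lungkine) by 0.30 and Lpcat1, which remodels surfactant lipid, by 0.26, and Ctsh, a protease that trims surfactant proteins, rose by 0.25. In alveolar type 1 cells 0 of 10 passed (2 at an unadjusted p under 0.05), with Aqp5 at -0.15 (adjusted p = 0.174). Kdr, the receptor of Vegfa on endothelium, fell by 0.37, Aplnr by 0.57 and Acvrl1 by 0.17, and Thbd, an anticoagulant of the vessel wall, rose by 0.25, among 25 endothelial genes. Vegfa itself fell by 0.20. Of 18 macrophage genes 2 were higher, namely Mertk (0.31) and Mrc1 (0.22), and Csf1r fell by 0.23. In airway cells 1 of 21 passed, and this was Muc5b, the main secreted mucin of mouse airways. Muc5b had 9.27, 10.02 and 10.21 in SD 12 h mice and 8.77, 9.13 and 9.64 in baseline mice. It was 0.82 higher (SE 0.13, adjusted p = 9.71e-06, limma). Clca1, a secreted protein of mucous cells, was 1.63 higher (SE 0.41, adjusted p = 0.00528) and overlapped between groups, with 6.59 to 8.39 in SD 12 h and 4.96 to 7.27 in baseline mice. It did not pass without the 16 arrays (1.48, adjusted p = 0.0189).

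Smooth muscle genes were higher in 4 of 12, namely Tagln (0.46, SE 0.08), Cnn1 (0.45), Myh11 (0.31) and Acta2 (0.25). Among genes of matrix, Loxl1, an enzyme that links elastin, fell by 0.46, Tnc by 0.58, and Loxl4 rose by 0.42. Of the hypoxia and glycolysis list 2 of 25 were higher and 3 lower. Pfkfb3, an activator of glycolysis, was 0.81 higher (SE 0.11), and Adm, the vasodilator adrenomedullin, had 6.42, 6.86 and 7.28 in SD 12 h mice and 6.72, 8.14 and 8.52 in baseline mice and fell by 1.16 (SE 0.21, adjusted p = 6.45e-05, limma). Bnip3 was 0.47 higher and the glucose transporter Slc2a1 fell by 0.33. Of immediate early genes Maff was 0.69 higher and Ier3 fell by 0.28, of 25.

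Protein folding showed few changes against baseline. Of 38 cytosolic chaperones and co-chaperones 0 passed by limma (5 at an unadjusted p under 0.05, with a median difference of -0.03), and the smallest adjusted p, 0.0246 for the co-chaperone Bag3, went with a difference of -0.24, which passed without the 16 arrays (-0.30, adjusted p = 0.00719). Of 31 folding genes of the endoplasmic reticulum Herpud1 (0.46) and Derl3 (0.54), both of the degradation pathway of that compartment, were higher. Without the 16 arrays 3 were higher, with Dnajb9 at 0.28, and 2 lower, Hyou1 at -0.25 and Sdf2l1 at -0.46. Against SS 12 h, 11 of the 31 had an unadjusted p under 0.05 by limma, with a median difference of 0.08. Of these 31, 1 passed as higher than SS 12 h (Calr), 3 did without the 16 arrays and 0 without array 27. In the integrated stress response Ddit4 was higher, Nupr1 fell by 0.36, and 21 of 23 did not pass. No member passed among 30 genes of glutathione, thioredoxin and Nrf2, of which 8 had an unadjusted p under 0.05 (Gstm2 at -0.24, adjusted p = 0.0106), nor among 7 of the hexosamine pathway, with 1 such gene (Gfpt1 at -0.13, adjusted p = 0.18). The same held for 30 genes of the proteasome, with 3 such genes (Psmc1 at 0.14, adjusted p = 0.0608), and 33 of the respiratory chain, with 5 (Atp5j at 0.11, adjusted p = 0.0281). Of 31 interferon-induced genes 1 was higher, Ifit3, at 0.33. Against baseline, MHC class II, platelet, red cell and lymph node genes had no changed member by limma (4, 2, 0 and 1 had an unadjusted p under 0.05), with Ciita at -0.46 (adjusted p = 0.0538), Itgb3 at -0.24 (adjusted p = 0.0256), Tspo2 at 0.12 (adjusted p = 0.576) and Fcrla at -0.56 (adjusted p = 0.0326). Without the 16 arrays H2-Ob (-0.67, adjusted p = 0.000534), Itgb3 (-0.30, adjusted p = 0.00723) and Fcrla (-0.63, adjusted p = 0.00444) were lower.

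Transcripts of neighbouring tissues varied from mouse to mouse within both groups and did not pass. Alb, made by liver, had 6.88, 8.31 and 12.68 in SD 12 h mice and 7.44, 9.39 and 12.34 in baseline mice, with its highest values on arrays 81 and 56. It differed by -0.66 (SE 0.86, adjusted p = 0.783). Acta1, of skeletal muscle, had 6.49, 7.45 and 11.48 in SD 12 h mice and 6.58, 10.69 and 11.92 in baseline mice, and differed by -1.42 (SE 0.94, adjusted p = 0.478). Of 12 liver, 11 skeletal muscle and 8 thymus genes none passed (0, 0 and 1 at an unadjusted p under 0.05). Of 16 fat genes none passed either (4 at an unadjusted p under 0.05), with Pnpla2 (adipose triglyceride lipase) at 0.39 (adjusted p = 0.0181). In the fit without the 16 arrays 3 fat genes were higher, Pnpla2 (0.58, adjusted p = 0.000186), Lipe (0.55) and Lpl (0.48), which encode lipases. The level of the list ran over 8.22 to 9.75 in SD 12 h and 7.90 to 9.44 in baseline mice. Its part in the changes of fasting genes, some of which fat expresses, was not tested. Of 13 cardiac genes none passed (1 at an unadjusted p under 0.05), with Myl7 at -0.45 (adjusted p = 0.222).

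Outside the lists, several of the largest changes fell on genes of less settled roles. Spon2, a secreted matrix protein, had 5.90, 5.99 and 7.65 in SD 12 h mice and 5.62, 9.06 and 9.31 in baseline mice, where array 81 was the highest SD 12 h mouse and array 36 the lowest baseline mouse. It fell by 2.39 (SE 0.29, adjusted p = 6.01e-08, limma), a 5.25-fold difference. Mettl21e, a methyltransferase gene, had 4.98, 7.50 and 7.85 in SD 12 h mice and 4.30, 4.80 and 7.36 in baseline mice and was 2.24 higher (SE 0.33). Fam124b fell by 1.34, Ccnjl by 1.24, Gm9733 by 1.15 and Tmem171 by 1.14.

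Among genes chosen after their values were seen, the miRNA genes Mir30a and Mir30c-2 were both higher. They lie 19361 bases apart (chr1:23272269-23272339 and chr1:23291701-23291784, plus strand, GRCm38.p6), and their mature 5′ arms, shown because they share a seed (capitals, bases 2 to 8), are in RefSeq as follows.
mmu-miR-30a-5p: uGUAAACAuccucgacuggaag
mmu-miR-30c-5p: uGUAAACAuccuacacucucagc
Mir30a had 7.99, 8.37 and 8.80 in SD 12 h mice and 7.13, 7.45 and 8.56 in baseline mice, and Mir30c-2 had 7.54, 8.30 and 8.58 in SD 12 h mice and 6.84, 7.12 and 8.42 in baseline mice. Array 36 was the highest baseline mouse for both. Mir30a was 0.83 higher (SE 0.17) and Mir30c-2 0.93 (SE 0.17). The probe sets read the transcript over the hairpin and not the mature miRNA.

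The levels at earlier hours of sleep loss are given beside those of mice left to sleep to the same hour, as a description without test. Fkbp5 averaged 7.74 ± 0.91 at baseline (SD, n = 9), then 8.59 ± 0.29, 8.94 ± 0.82 and 9.74 ± 0.40 after 3, 6 and 9 h of sleep loss (n = 9 each) and 9.93 ± 0.79 after 12 h (n = 8). Per2 averaged 7.57 ± 0.99, 8.08 ± 0.40, 8.34 ± 0.72, 9.45 ± 0.23 and 9.58 ± 0.49 at the same times, and Arntl 8.90 ± 1.18, 8.82 ± 0.51, 8.04 ± 0.61, 6.29 ± 0.28 and 6.67 ± 0.46. The largest step in the mean of Arntl fell between 6 and 9 h. In mice left to sleep for 3, 6 and 9 h (n = 9, 7 and 9), Arntl averaged 8.53, 7.52 and 6.14. Its mean was thus low at 9 h with and without sleep loss. Per2 averaged 7.40, 8.30 and 9.38 in these sleeping mice, and Fkbp5 7.73, 8.10 and 8.69, below sleep loss at each of these hours. Without the 16 arrays the SDs at baseline were 0.17 for Fkbp5, 0.27 for Per2 and 0.09 for Arntl.

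The means of Angptl4, Retnlg and Fcer2a differed from baseline by more than the SD of either group at 3 h. The same held without the 16 arrays for Fkbp5 (7.38 ± 0.17 at baseline and 8.54 ± 0.31 at 3 h) and Per2 (7.25 ± 0.27 and 7.91 ± 0.25). Hdc, of the neutrophil and monocyte list, averaged 9.46 at baseline and 9.56, 9.61, 8.93 and 8.70 over the same hours of sleep loss, so that its mean was lower from 9 h on. Angptl4 averaged 8.40 ± 0.61 at baseline and 9.58 ± 0.22, 9.61 ± 0.39, 9.63 ± 0.19 and 9.92 ± 0.60 after 3, 6, 9 and 12 h. Retnlg averaged 9.36 ± 0.43 at baseline and 8.22 ± 0.44, 8.86 ± 0.50, 8.47 ± 0.67 and 8.15 ± 0.66, and Fcer2a 8.33 ± 0.33 and 7.39 ± 0.40, 7.88 ± 0.52, 7.10 ± 0.35 and 7.20 ± 0.67. Muc5b averaged 9.12 ± 0.26 at baseline and was between 9.86 and 9.94 at every later time. In mice left to sleep for 3, 6 and 9 h, Retnlg averaged 9.53, 9.01 and 9.13 and Fcer2a 8.53, 8.41 and 8.15. There Angptl4 averaged 8.93, 8.85 and 9.06, Muc5b 9.46, 9.57 and 9.49 and Hdc 9.58, 9.27 and 8.75. The values at 3 and 6 h come from later array numbers than those at 9 and 12 h, array 81 apart, and the part of array order in these courses was not tested.

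**Figure D4:**
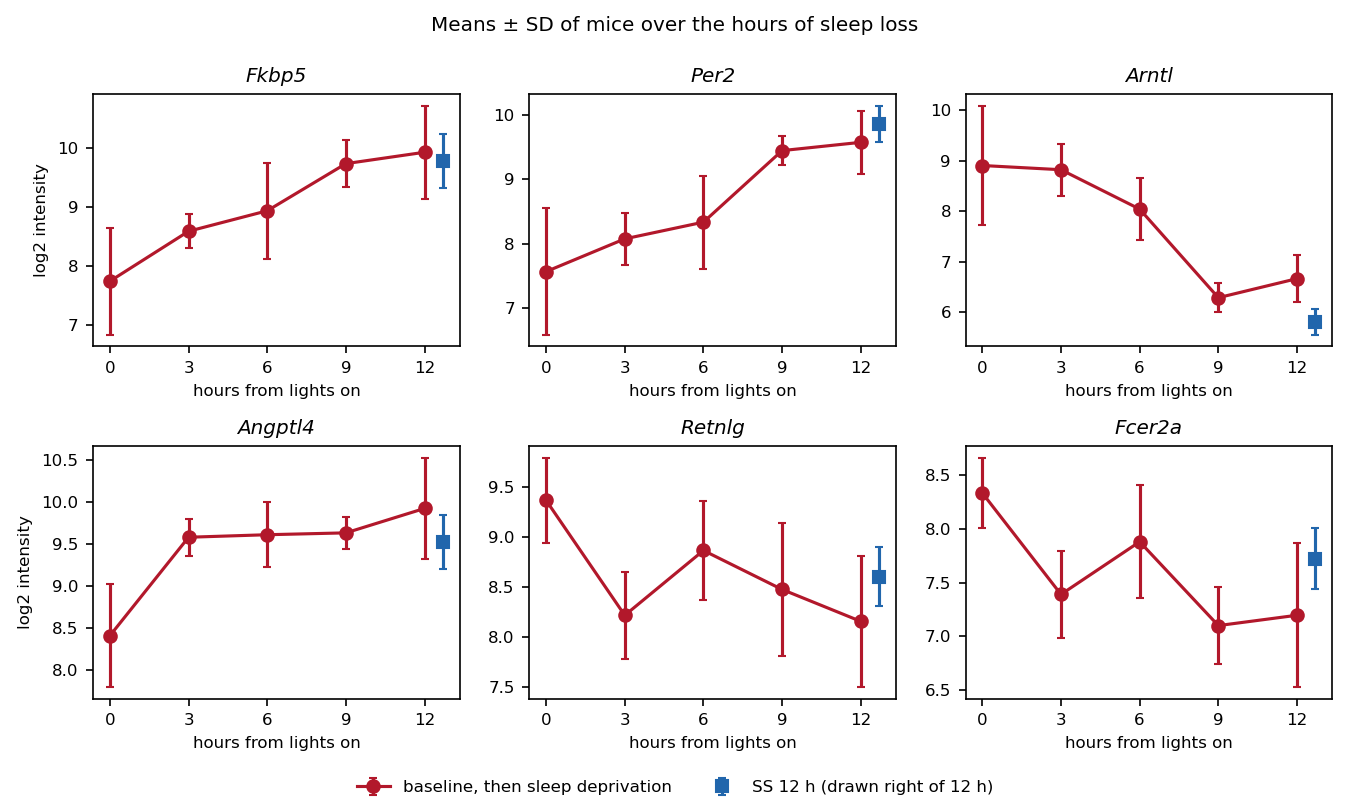
Mean log2 intensity (vertical axes, bars SD) of 6 genes in baseline mice at 0 h and in mice sleep-deprived for 3, 6, 9 and 12 h (red circles) over hours from lights on (horizontal axes), with SS 12 h mice as blue squares just right of 12 h. Angptl4 stood at 8.40 at baseline and at 9.58 at 3 h, whereas Arntl stood at 8.82 at 3 h and at 6.29 by 9 h.

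Set against SS 12 h at the same hour, 9 genes were higher in SD 12 h (0.0478% of 18820) and 16 lower (0.085%), and without the 16 arrays 66 were higher (0.351%) and 61 lower (0.324%). Leaving out 1 mouse gave 3 to 41 genes, and 15 of the 17 mice moved the count by over 1.5 times when left out, the exceptions being arrays 15 and 25. At an unadjusted p under 0.05, 1786 genes differed. Of the genes changed against baseline, 4 also differed from SS 12 h.

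Alox12e, an epidermal lipoxygenase, had 4.95, 5.73 and 6.88 in SD 12 h mice, 4.44, 4.70 and 5.01 in SS 12 h mice and 4.54, 4.65 and 4.80 in baseline mice. The SD 12 h mice all lay above baseline, and 1 of them, array 24, lay below the highest SS 12 h mouse. In SS 12 h and baseline mice the probe set was dim and was not shown to lie above background, so that these sizes may not be exact. It was 1.03 higher than in SS 12 h (adjusted p = 0.000512, limma, or 0.0233 with only the compared groups in the fit) and 1.08 higher than at baseline (SE 0.17, adjusted p = 4.41e-06). Its mean over the hours of deprivation was 4.87, 4.89 and 5.07 at 3, 6 and 9 h and 5.73 at 12 h.

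Ccn3, a secreted matricellular protein, had 7.88, 8.28 and 8.47 in SD 12 h mice, 7.50, 7.79 and 8.00 in SS 12 h mice and 7.52, 7.74 and 7.83 in baseline mice. The SD 12 h mice lay above baseline, and array 81 alone lay within the range of SS 12 h. It was 0.49 higher than in SS 12 h (adjusted p = 0.00818) and 0.55 higher than at baseline (SE 0.10). Acta2, the actin of smooth muscle, had 12.09, 12.30 and 12.37 in SD 12 h mice, 11.87, 11.93 and 12.09 in SS 12 h mice and 11.80, 12.01 and 12.13 in baseline mice. The lowest SD 12 h mice, arrays 81 and 27, reached down to the highest of the other groups. It was 0.30 higher than in SS 12 h (adjusted p = 0.000512) and 0.25 higher than at baseline. Scel (sciellin), of squamous and alveolar epithelium, had 9.70, 9.84 and 10 in SD 12 h mice, 10.09, 10.17 and 10.39 in SS 12 h mice and 10.08, 10.18 and 10.47 in baseline mice, with every SD 12 h mouse below every other. It fell by 0.36 against SS 12 h (adjusted p = 0.00107) and by 0.35 against baseline.

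Other genes differed from SS 12 h without having changed against baseline. The platelet genes Mpig6b, Alox12, Gp9 and Itga2b were lower than in SS 12 h by 0.67, 0.61, 0.61 and 0.51. By limma 13 of the 13 platelet genes had an unadjusted p under 0.05, against 1786 of all 18820 genes, with a median difference of -0.38. Of the 13, 4 passed, against 5 without the 16 arrays and 0 without array 27 (adjusted p = 0.0144 for Mpig6b). These 4 did not pass with only the compared groups in the fit either (adjusted p = 0.0215 for Mpig6b). Against baseline, 3 of the 13 were higher in SS 12 h. Red cell genes ran lower as well, with a median of -0.22, 5 of 8 at an unadjusted p under 0.05, none past the threshold and Slc4a1, the anion exchanger of red cells, at -0.54 (adjusted p = 0.15). The mean level of the red cell list lay between 6.56 and 7.19 in SD 12 h mice, 6.67 and 7.45 in SS 12 h mice and 6.68 and 7.05 in baseline mice, and its part in the platelet difference was not tested. The mean level of the platelet list lay between 8.03 and 8.66 in SD 12 h mice, 8.47 and 8.91 in SS 12 h mice and 8.28 and 8.59 in baseline mice, and the SS 12 h mice reached the highest levels. Mfsd2a, a transporter of lysophosphatidylcholine, had 8.32, 8.92 and 9.38 in SD 12 h, 7.54, 8.07 and 8.36 in SS 12 h and 8.22, 8.78 and 8.95 in baseline mice, and was 0.84 higher than in SS 12 h (adjusted p = 0.00726) and differed by 0.20 from baseline (adjusted p = 0.619). Calr, a chaperone of new glycoproteins, was 0.25 higher than in SS 12 h (adjusted p = 0.00677) and differed by -0.08 from baseline (adjusted p = 0.414). Without array 27 only 5 genes differed from SS 12 h, namely Acta2, Alox12e, Scel, Robo1 and Susd4, so that Ccn3 (adjusted p = 0.0144), Mfsd2a (adjusted p = 0.0218) and Calr (adjusted p = 0.0144) no longer passed.

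Clock genes were set beside SS 12 h in the same way, and none of the 25 passed in all mice by limma (7 at an unadjusted p under 0.05). Arntl was 0.86 higher in SD 12 h (95% interval from 0.26 to 1.46, adjusted p = 0.303) and Ciart was lower at -0.67 (from -1.0 to -0.35, adjusted p = 0.0419). Without the 16 arrays Arntl (0.87, adjusted p = 5.55e-05), Npas2 (0.54, adjusted p = 0.000607), Clock (0.30, adjusted p = 0.00174) and Leo1 (0.35, adjusted p = 0.00376) were higher in SD 12 h, and Ciart (-0.68, adjusted p = 7.74e-05) and Tspan4 (-0.36, adjusted p = 0.00414) lower. Rbm3 was lower than in SS 12 h there, at -0.48 (adjusted p = 7.36e-05), and Cyp1a1 at -1.03 (adjusted p = 0.000272), while Cyp1a1 in all mice was at -0.80 (adjusted p = 0.0175).

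**Figure D5:**
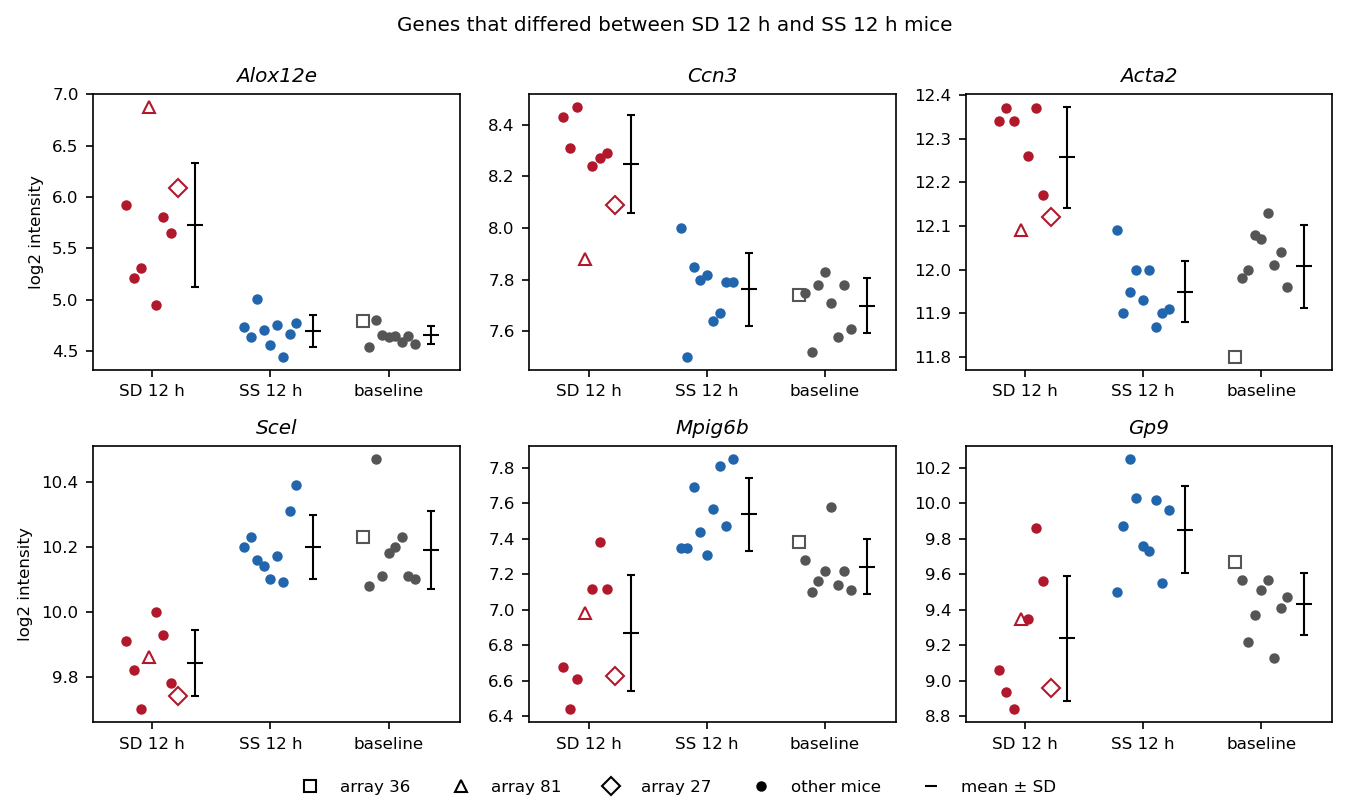
Log2 intensity (vertical axes) in each mouse of SD 12 h (red), SS 12 h (blue) and baseline (grey) for 6 genes that differed between SD 12 h and SS 12 h, with group means and SDs in black. For Scel every SD 12 h mouse (at most 10) lies below every other mouse, for Alox12e, Ccn3 and Acta2 the groups touch only at their edges, and for Mpig6b and Gp9 the SS 12 h mice have the highest medians (7.47 and 9.87).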

How the data were processed

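RNA from the lung of each mouse was measured on its own Affymetrix whole-transcript array (Mouse Gene 1.0 ST). The authors deposited log2 intensities, normalised and summarised per probe set by robust multi-array average, in a table whose decimal points were missing. The decimal was restored from the leading digits, and the restored log2 values ran between 2.27 and 13.85 (array medians between 6.66 and 6.74 in SD 12 h and between 6.67 and 6.74 in baseline). Precision is limited by the number of arrays.

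All 78 arrays were fitted with 1 mean per group in limma 3.58.1 (R 4.3.3), with Benjamini-Hochberg adjustment over 35556 probe sets and a threshold of 0.01. A gene was its brightest probe set with 1 symbol (18820 genes). The fitting step was tested on simulated data. Named genes were the 12 largest changes in each direction, up to 3 members per list, all clock and cold-inducible members, and genes that differed from both other groups, with further list members added. The members and the 42 gene lists (772 genes measured) were chosen with earlier results of these data known. Alternatives changed the arrays, filter, normalisation, scaling, variance model, weights and blocking. Promoter and miRNA sequences were those of RefSeq (GRCm38.p6).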

Additional observations from a re-analysis of the deposited data

Results flagged for a closer look

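In each group and for each of the 109 named genes, the highest or lowest mouse was set against the gap that separates it from the rest, in 218 tests, and 80 stood far from the other mice of their group. Chance alone marks about 1 in 20 groups. Of the 80, 45 were array 36 of baseline and 31 array 81 of SD 12 h, which are among the 16 arrays left out in the alternative fit.

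Array 81 stood apart from the other SD 12 h mice for Zbtb16 at 10.43, Mettl21e at 4.98, Fkbp5 at 7.99, Per2 at 8.37, Fam107a at 7.68, Per1 at 9.35, Per3 at 9.23 and Hif3a at 5.54. Further genes of array 81 were Map3k6 at 8.08, Angptl4 at 8.48, Spon2 at 7.65, Retnlg at 9.54, Gm9733 at 5.49, Cry2 at 9.47, Hlf at 8.57 and Wee1 at 8.63. It also stood apart for Tef at 9.33, Herpud1 at 11.17, Derl3 at 5.91, Ddit4 at 8.58, Foxo3 at 9.22, Fads2 at 10.52, Pmvk at 7.87 and Cyp2b10 at 12.28. The remaining values of array 81 were Itga2 at 9.96, Muc5b at 9.27, Thbd at 11.68, Pnpla2 at 10.72, Atp5j at 11.48, Tspan4 at 10.14 and Pim3 at 9.55.

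Array 36 stood apart from the other baseline mice for Mettl21e at 7.36, Fkbp5 at 10.1, Per2 at 10.12, Fam107a at 9.84, Per3 at 10.3, Hif3a at 7.12, Map3k6 at 9.39 and Npas2 at 6.54. Further genes of array 36 were Spon2 at 5.62, Arntl at 5.8, Fam124b at 6.05, Ccnjl at 5.86, Il1b at 6.18, Retnlg at 8.36, Adm at 6.72 and Tmem171 at 6.86. It also stood apart for Cry2 at 10.01, Hlf at 9.37, Wee1 at 9.88, Tef at 10.11, Herpud1 at 11.73, Ddit4 at 9.87, Nupr1 at 10.1 and Pik3ip1 at 9.72. Next were Fads2 at 10.17, Nfkb2 at 7.98, Pfkfb3 at 9.95, Cyp2b10 at 12.7, Cyp2a5 at 11.25, Itga2 at 9.53, Hdc at 8.23 and Ifit3 at 10.4. Values of array 36 were also far from the rest for Abca3 at 10.8, Kdr at 10.86, Loxl1 at 8.69, Clock at 9.86, Rora at 10.03, Ciart at 9.92, Bhlhe41 at 8.79 and Usp2 at 9.15. The last of these were Tspan4 at 11.04, Coq10b at 8.68, Pim3 at 10.02, Leo1 at 6.09 and Rbm3 at 12.21.

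The other mice far from their group were array 27 of SD 12 h for Rag2 at 6.94, array 27 of SD 12 h for Mcm7 at 9.72, array 56 of baseline for Cry1 at 6.9 and array 39 of baseline for Scel at 10.47. All values in these sentences are log2 intensities.

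Of the 25 genes that differed between SD 12 h and SS 12 h mice by limma's test of SD 12 h minus SS 12 h, 4 had also changed against baseline. The difference was 0.30 for Acta2 (adjusted p = 0.000512), 1.03 for Alox12e (adjusted p = 0.000512), -0.36 for Scel (adjusted p = 0.00107) and 0.49 for Ccn3 (adjusted p = 0.00818).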

How the results depend on the processing

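Against baseline, 1258 probe sets and 1014 genes changed. With only the arrays of the groups compared these were 479 and 390, without the 16 arrays 2293 and 1826, with array weights 3545 and 2732, and without the 16 arrays and array 27, a setting chosen after seeing the data, 2231 and 1785. Leaving out 1 mouse gave 920 to 1743 probe sets and 745 to 1407 genes, the highest without array 36. The 25 genes that differed from SS 12 h became 127 without the 16 arrays, 338 with array weights, 96 without the 16 arrays and array 27, 12 with median scaling and 3 to 41 with 1 mouse left out. The share of these that were higher in SD 12 h was 36%, against 52% without the 16 arrays, 25% with median scaling and 61.3% with only the compared groups. The cause of these shifts was not tested. Of the 109 named genes 87 passed against baseline, and none of these 87 changed direction under any alternative run. With only the compared groups 36 no longer passed, with 1 mouse left out 11 did not in at least 1 case, with runs of array numbers as a random block 5, with median scaling 3 and without the 16 arrays 1 (Clca1), while 5 of the 22 that had not passed did so there. Ccn3 no longer differed from SS 12 h with quantile normalization, with median scaling or with 1 mouse left out, nor Alox12e with only the compared groups. No paired analysis was possible because the groups share no replicate number.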
